A study of Mus musculus with 6 samples.

Results

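The 10 genes described here encode transcription factors used across the blood system: Spi1, Ikzf1, Ikzf2, Ikzf3, Runx1, Runx3, Bcl11a, Etv6, Cbfa2t3 and Myb. They were chosen by name, as factors shared by dendritic cell lineages, with earlier results of these data known. Each was read on probe sets that carry its symbol and no other. All 10 were measured, on 11 of 28853 probe sets, and they were tested among 19938 genes with no filter on dim ones. The arrays hold RNA from splenic conventional dendritic cells of wild-type (WT) mice, sorted into 3 populations with 2 arrays each. The CD24+CD172a+ cDC2 carry both surface proteins, the CD24-CD172a+ cDC2 carry CD172a alone, and the CD24+ cDC1 are the CD24-bearing cells without CD172a. The labels name no treatment, strain, sex, age or number of pooled animals and leave unstated whether replicate arrays were made from different animals. The p-values therefore measure the spread between these arrays, which may be technical.

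Conventional dendritic cells arise in bone marrow from progenitors that pass through a shared dendritic cell stage and then divide into cDC1, which cross-present antigen, and cDC2, which mainly prime CD4 T cells. PU.1, the ETS factor encoded by Spi1, opens chromatin and drives Flt3 and other myeloid genes at the progenitor stage. Ikaros family zinc finger proteins (Ikzf genes) bind TGGGAA and recruit the NuRD complex, RUNX proteins bind TGTGGT with their partner CBF-beta, and MYB binds AACTG and keeps progenitors dividing. Bcl11a is a zinc finger repressor needed for B cells and plasmacytoid dendritic cells, Etv6 is an ETS repressor, and Cbfa2t3 (also called Eto2) is a corepressor that sits on E protein and TAL1 complexes.

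The transcripts of the sort markers followed the gates. Cd24a had a mean log2 intensity of 10.88 in CD24+CD172a+ cDC2, 8.83 in CD24-CD172a+ cDC2 and 11.75 in CD24+ cDC1, and Sirpa, which encodes CD172a, had 10.14, 10.19 and 5.18 in the same order. These genes were sorted on and are no finding. Of 10 cDC1 markers, Cd24a included, 10 were lower in CD24+CD172a+ cDC2 than in CD24+ cDC1, and of 9 cDC2 markers, Sirpa included, 8 were higher. In the CD24-CD172a+ cDC2, 9 of the cDC1 markers were lower and 9 of the cDC2 markers higher. The summed linear intensity of 8 general dendritic cell markers, Zbtb46 and Flt3 among them, was 25539 to 26269 in CD24+CD172a+ cDC2, 25235 to 26340 in CD24-CD172a+ cDC2 and 24753 to 25057 in CD24+ cDC1. Such a sum is set mainly by its brightest genes. Within the list, Itgax was higher than in CD24+ cDC1 in CD24+CD172a+ (log2 fold change 0.77) and CD24-CD172a+ cDC2 (0.72). Flt3 was lower in CD24-CD172a+ cDC2 than in CD24+ cDC1 (-0.64), a call lost on dropping some compared arrays.

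The promoters of the factors that differed between populations are printed here with those of Runx1, so that the RUNX pair and the binding motifs of the other factors can be read in place. The windows run from 250 bases before to 50 bases after a transcript start (RefSeq, GRCm38.p6), in the direction of the gene. They matched 7 of the 10 factors, with 11 windows between them. Capitals mark RUNX matches (ACCACA, the other strand of TGTGGT) in Runx3 and Runx1, PU.1 matches (GAGGAA) in Cbfa2t3, and the Ikaros match (TGGGAA) in Bcl11a, and Myb has no capitals. Other matches, 1 Ikaros match each in Runx3 and Cbfa2t3 and 2 MYB matches in Runx1, are left in lower case, and of genes with several windows only window 1 of the table is shown.
Runx3: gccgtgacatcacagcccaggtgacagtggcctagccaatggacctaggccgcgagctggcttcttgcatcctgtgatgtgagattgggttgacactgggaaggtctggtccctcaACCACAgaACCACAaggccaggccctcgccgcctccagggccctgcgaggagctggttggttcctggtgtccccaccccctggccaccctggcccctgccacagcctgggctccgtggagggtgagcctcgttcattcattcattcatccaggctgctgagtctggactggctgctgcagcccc
Runx1: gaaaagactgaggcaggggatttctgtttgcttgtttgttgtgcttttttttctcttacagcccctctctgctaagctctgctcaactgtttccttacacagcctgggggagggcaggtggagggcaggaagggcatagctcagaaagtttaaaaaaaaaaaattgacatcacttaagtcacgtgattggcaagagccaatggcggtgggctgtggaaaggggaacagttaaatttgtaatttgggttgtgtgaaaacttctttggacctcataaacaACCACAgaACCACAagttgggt
Bcl11a: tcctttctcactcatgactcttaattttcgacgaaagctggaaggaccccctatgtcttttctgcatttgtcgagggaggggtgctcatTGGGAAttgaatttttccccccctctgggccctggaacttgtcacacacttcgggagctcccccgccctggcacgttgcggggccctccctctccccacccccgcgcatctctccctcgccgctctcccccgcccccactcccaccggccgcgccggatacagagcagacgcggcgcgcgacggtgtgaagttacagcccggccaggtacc
Cbfa2t3: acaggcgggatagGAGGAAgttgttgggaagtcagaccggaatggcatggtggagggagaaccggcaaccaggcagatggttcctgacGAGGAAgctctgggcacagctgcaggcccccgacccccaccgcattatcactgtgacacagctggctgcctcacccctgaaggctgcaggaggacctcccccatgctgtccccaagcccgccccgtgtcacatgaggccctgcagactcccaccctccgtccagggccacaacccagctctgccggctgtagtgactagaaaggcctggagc
Myb: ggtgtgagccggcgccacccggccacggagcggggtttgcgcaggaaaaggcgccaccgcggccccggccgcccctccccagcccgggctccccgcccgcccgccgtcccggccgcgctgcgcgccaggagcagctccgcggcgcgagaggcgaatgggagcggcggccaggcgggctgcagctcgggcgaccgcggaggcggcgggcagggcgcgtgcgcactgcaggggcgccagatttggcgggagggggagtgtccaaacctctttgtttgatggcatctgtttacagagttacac
The Runx3 window is chr4:135120395-135120694 on the plus strand, the Runx1 window chr16:92826025-92826324 on the minus strand, and the Bcl11a window chr11:24080445-24080744 on the plus strand. The Cbfa2t3 window is chr8:122699060-122699359 on the minus strand and the Myb window is chr10:21160935-21161234 on the minus strand. The 4 motifs searched, on both strands, were those of RUNX, PU.1, Ikaros and MYB with the letters given above, and no match overlapped a match of another motif in the factors' windows.

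Runx1 and Runx3 share the run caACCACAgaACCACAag, 18 bases with a tandem pair of RUNX matches, 2 in each window. It starts at position 27 relative to the Runx1 transcript start and at position -136 relative to that of Runx3, with the start as position 1 and no position 0, and it occurs in 4 of 32851 windows, those of Runx1, Runx2, Runx3 and Gm16225, a predicted gene. A RUNX match stood in 16.8% of all windows and 2 or more in 1.81%. The Bcl11a window holds 1 Ikaros match, a motif found in 25.6% of windows. In the Cbfa2t3 window, 2 PU.1 matches begin at positions -237 and -162, where 28.3% of windows hold at least 1 match and 4.82% hold 2 or more. The Myb window, with 75% G and C, holds none of the 4 motifs, of which the MYB motif occurs in 44.8% of windows. These matches describe the letters of the windows and were not tested as binding sites.

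Between the 2 cDC2 populations, 0 of the 10 factors passed the test (limma, Benjamini-Hochberg adjusted p under 0.05 over all 19938 genes), where 1.46% of all genes did. Of all genes, 0.808% were higher and 0.652% lower, and 2.47% were called among the 9969 genes above the median gene. At an unadjusted p under 0.05 there were 2 factors, Cbfa2t3 and Bcl11a. Cbfa2t3 had a log2 fold change of 0.32 (95% interval 0.04 to 0.61, limma adjusted p = 0.299) on its brighter probe set and the opposite sign, -0.16 (limma adjusted p = 0.685), on its other one. Bcl11a had 0.32 (95% interval 0.01 to 0.62, limma adjusted p = 0.348). The median log2 fold change of the 10 factors, CD24+CD172a+ over CD24-CD172a+ cDC2, was 0.02, against -0.01 over all genes, and their median absolute change was 0.21, against 0.14 over all genes and 0.16 over genes above the median gene.

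Against CD24+ cDC1, CD24+CD172a+ cDC2 had higher Bcl11a and Runx3 and lower Myb, so 3 of 10 factors were called, where 13.6% of all genes were, 7.11% higher and 6.52% lower. CD24-CD172a+ cDC2 had higher Bcl11a and lower Myb and Cbfa2t3 than CD24+ cDC1, again 3 of 10, where 15.7% of all genes were called, 6.83% higher and 8.91% lower. Among the 9969 genes above the median gene, which 8 of the 10 factors are, the shares were 23.9% and 27.6%, so 3 of 10 lies near that background. The median absolute log2 change of the factors was 0.15 for CD24+CD172a+ cDC2 over CD24+ cDC1 and 0.28 for CD24-CD172a+ cDC2 over CD24+ cDC1, against 0.16 and 0.17 over all genes and 0.23 and 0.26 over genes above the median gene. Both comparisons use the same 2 arrays of CD24+ cDC1, so they are not independent of each other. In sorted bulk RNA, fewer cells of a subset and less RNA per cell cannot be told apart.

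**Figure D1:**
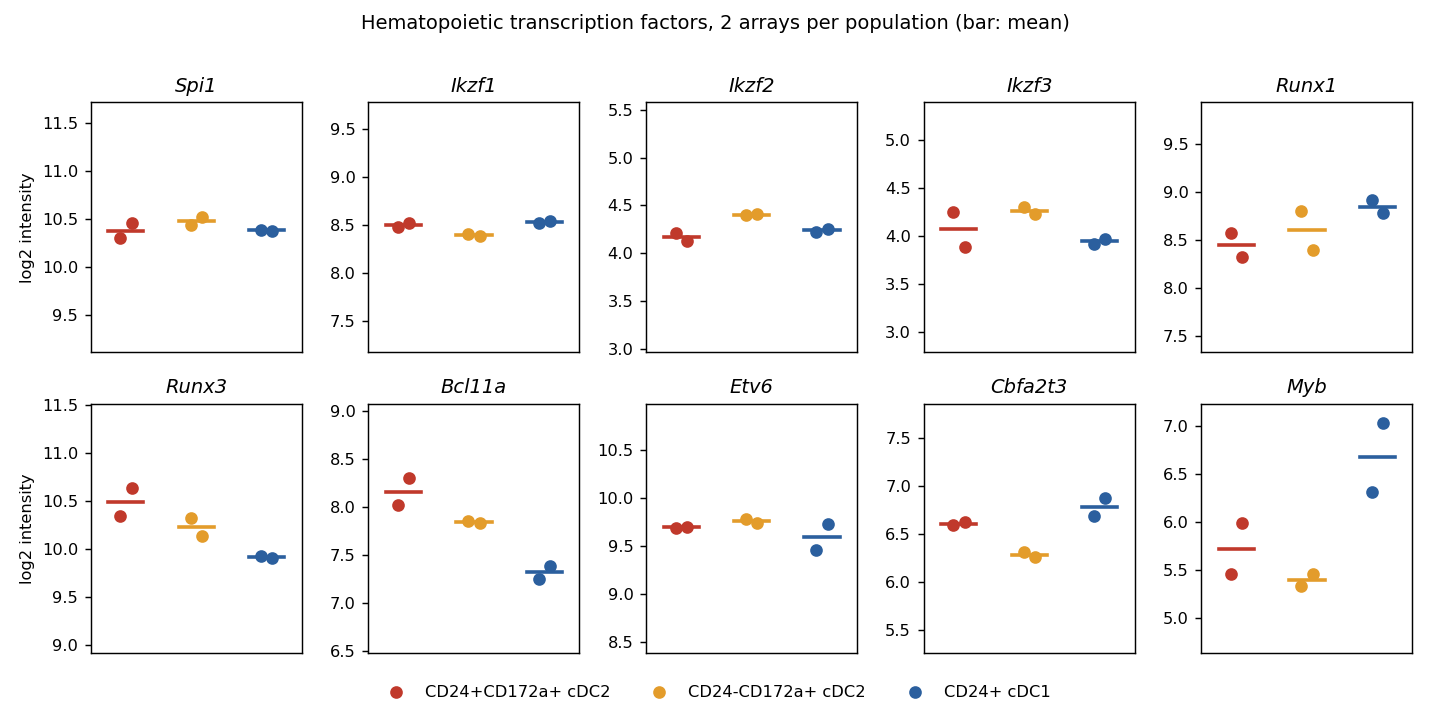
Log2 intensity of the 10 factors (y axis, log2 units of the linear RMA values) on each of the 6 arrays, with CD24+CD172a+ cDC2 in red, CD24-CD172a+ cDC2 in orange and CD24+ cDC1 in blue. Points are arrays and bars are means of 2. All panels span the same range of log2 units, so that the gap between populations can be compared: Spi1 lies within 10.30 to 10.52 on every array, while Myb spans 5.34 to 7.04.

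Myb, which sustains proliferation in early progenitors, showed the widest gap of the 10 factors. Its log2 intensity was 5.45 and 5.99 in CD24+CD172a+ cDC2, 5.34 and 5.46 in the CD24-CD172a+ cDC2, and 6.32 and 7.04 in CD24+ cDC1. Both CD24+ cDC1 arrays lay above all 4 cDC2 arrays, while the 2 cDC2 populations overlapped. The means were 5.72 ± 0.38, 5.40 ± 0.09 and 6.68 ± 0.51 (SD, n = 2 each, in the same order). CD24-CD172a+ cDC2 were 2.42-fold lower than CD24+ cDC1 (log2 fold change -1.28, SE 0.23, 95% interval -1.80 to -0.76, limma adjusted p = 0.00362). CD24+CD172a+ cDC2 were 1.94-fold lower (log2 fold change -0.95, SE 0.23, 95% interval -1.47 to -0.43, limma adjusted p = 0.0206).

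The 2 CD24+ cDC1 arrays differed more in Myb than in any of the other 9 factors, and the size of the difference depended on which was kept. Without the brighter of them, replicate 2, the CD24-CD172a+ cDC2 value was -0.92 and still passed, and without replicate 1 it was -1.64. For CD24+CD172a+ cDC2, the value without CD24+ cDC1 replicate 2 was -0.59 (limma adjusted p = 0.161), and without CD24+CD172a+ replicate 1 it was -0.68 (limma adjusted p = 0.195), so that call rests on these 2 arrays. Between the 2 cDC2 populations the log2 fold change was 0.32 (95% interval -0.20 to 0.84), within the spread of the arrays.

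Other MYB family and coactivator genes did not share the pattern of Myb by call: of 7 measured, Myb included, it was the only gene called against CD24+ cDC1 in either cDC2 population with the intensities as deposited. When the arrays were scaled again in 3 ways, at most 2 genes of the list were called in CD24+CD172a+ cDC2 over CD24+ cDC1. Crebbp and Ep300, the coactivators that MYB binds, had log2 fold changes of 0.45 (limma adjusted p = 0.0642) and 0.32 (limma adjusted p = 0.147) for CD24+CD172a+ cDC2 over CD24+ cDC1. Progenitor markers were set beside Myb, and those that passed were higher in cDC2. Of 13 measured, 4 were higher in CD24+CD172a+ cDC2 than in CD24+ cDC1 and 0 lower, with 3 of these calls kept in all 4 fits that dropped a compared array. Cd93, a surface protein of early progenitors, had a log2 fold change of 1.41 (SE 0.14), and Kit, the stem cell factor receptor, had 0.71 (SE 0.12). In CD24-CD172a+ cDC2, 3 progenitor markers were higher than in CD24+ cDC1 and 0 lower, and 1 of these calls was kept in all 4 such fits. Kit was not called there. The calls are 30.8% and 23.1% of the list, of which 6 genes lie above the median gene. Over all genes 13.6% and 15.7% were called, and 23.9% and 27.6% of those above the median gene. The list's summed linear intensity was 1593 to 1618 in CD24+CD172a+ cDC2, 1303 to 1334 in CD24-CD172a+ cDC2 and 1023 to 1080 in CD24+ cDC1. The part of this list in the result for Myb was not tested. The genes whose profile lay nearest to that of Myb over the 6 arrays, by root mean square difference of centred log2 values, were Slc25a24 (0.165), Gramd3 (0.170) and Stx3 (0.170), out of 9587 candidates.

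Bcl11a was the only factor called higher in both cDC2 populations than in CD24+ cDC1. It had 8.03 and 8.30 log2 units in CD24+CD172a+ cDC2, 7.86 and 7.84 in the CD24-CD172a+ cDC2, and 7.26 and 7.39 in CD24+ cDC1. The arrays of the 3 populations did not overlap, at means of 8.16 ± 0.19, 7.85 ± 0.01 and 7.32 ± 0.09 (SD, n = 2 each, in the same order). Absence of overlap between the cDC2 populations held for 44.2% of all genes. Bcl11a was not called there (log2 fold change 0.32, limma adjusted p = 0.348). CD24+CD172a+ cDC2 were 1.79-fold higher than CD24+ cDC1 (log2 fold change 0.84, SE 0.14, 95% interval 0.53 to 1.15, limma adjusted p = 0.00201), and this call was kept with any 1 of the 4 compared arrays left out. CD24-CD172a+ cDC2 were 1.44-fold higher than CD24+ cDC1 (0.53, SE 0.14, 95% interval 0.22 to 0.83, limma adjusted p = 0.0270). This call was lost without each of the 4 compared arrays in turn, where the value was 0.46 to 0.59 and the limma adjusted p was 0.0670 to 0.172.

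Bcl11a and its relative Bcl11b are subunits of the BAF chromatin remodeller. Bcl11b was dim, with mean log2 intensities of 4.59 in CD24+CD172a+ cDC2, 4.55 in CD24-CD172a+ cDC2 and 4.75 in CD24+ cDC1, and was not called. Of 21 BAF genes, Bcl11a included, 4 were higher and 1 lower in CD24+CD172a+ cDC2 than in CD24+ cDC1, and 2 were higher and 3 lower in CD24-CD172a+ cDC2. That is 23.8% of the list in each case, and 19 of its genes lie above the median gene, where 23.9% and 27.6% of genes were called, so the counts are near the background. In each case 2 of the 5 calls were kept with any compared array left out. Smarca2, an ATPase of the complex, was higher in both, by 0.73 (limma adjusted p = 0.00242) in CD24+CD172a+ cDC2 and 0.74 (limma adjusted p = 0.00219) in CD24-CD172a+ cDC2. Arid2, a subunit of the PBAF form, was lower, at -0.61 (limma adjusted p = 0.00866) and -1.03 (limma adjusted p = 0.000286). The Smarca2 calls and the Arid2 call in CD24-CD172a+ cDC2 were kept in all 4 fits that dropped a compared array, while the Arid2 call in CD24+CD172a+ cDC2 was lost without CD24+CD172a+ replicate 1 or CD24+ cDC1 replicate 2, at limma adjusted p-values of up to 0.0660.

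Bcl11a is also a factor of plasmacytoid dendritic cells and B cells, and against CD24+ cDC1 markers of both held calls in each direction. Of 11 plasmacytoid markers measured, 5 were higher and 2 lower in CD24+CD172a+ cDC2 than in CD24+ cDC1. Spib (2.12), Cd209d (1.67) and Siglech (1.15) were among the higher ones, and Ccr9 was lower (-1.79, all log2 fold changes). In CD24-CD172a+ cDC2, 3 were higher and 3 lower. With any compared array left out, 6 of the 7 and 4 of the 6 calls were kept. The calls are 63.6% and 54.5% of the list, of which 7 genes lie above the median gene. For these comparisons 13.6% and 15.7% of all genes were called, and 23.9% and 27.6% of those above the median gene. The list's summed linear intensity was 969.2 to 969.4 in CD24+CD172a+ cDC2, 676.1 to 680.5 in CD24-CD172a+ cDC2 and 765.8 to 804.1 in CD24+ cDC1. Of 9 B cell markers, 3 were higher and 1 lower in CD24+CD172a+ cDC2 than in CD24+ cDC1, with summed intensities of 318 to 323, 353 to 399 and 299 to 333 in the order of the populations above. The lower one was Ms4a1, the B cell surface protein CD20, at a log2 fold change of -1.52 (limma adjusted p = 0.000366), and 2 of the 4 calls were kept with any compared array left out. In the CD24-CD172a+ cDC2, 2 were higher and 1 lower than in CD24+ cDC1, and all 3 calls were kept. The B cell calls are 44.4% and 33.3% of that list, of which 4 genes lie above the median gene. Pax5 and Ebf1, which define B cells, had mean log2 intensities of 4.74 and 3.07 in CD24+CD172a+ cDC2 and 4.81 and 3.17 in CD24+ cDC1, and neither was called. Between the cDC2 populations, 5 of the 11 plasmacytoid markers were higher and 0 lower in CD24+CD172a+ cDC2, 45.5% where 1.46% of all genes were called. Of the 9 B cell markers, 0 were higher and 1 lower there. These calls depended on which arrays were kept, and the lists were chosen with earlier results of these data known. The shares are therefore no independent support for a plasmacytoid or B cell trait. The part of these markers in the result for Bcl11a was not tested. The nearest profiles to Bcl11a were those of Wls (0.0514), Snx9 (0.0623) and Nccrp1 (0.0680, root mean square difference over 6 arrays).

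Runx3, the RUNX factor needed for Langerhans cells and cytotoxic T cells, followed the same order at smaller size. Its log2 intensity was 10.34 and 10.63 in CD24+CD172a+ cDC2, 10.32 and 10.13 in the CD24-CD172a+ cDC2, and 9.93 and 9.91 in CD24+ cDC1. The arrays of the 3 populations did not overlap, although CD24+CD172a+ replicate 1 and CD24-CD172a+ replicate 1 were almost equal. CD24+CD172a+ cDC2 were 1.48-fold higher than CD24+ cDC1 (log2 fold change 0.57, SE 0.14, 95% interval 0.25 to 0.89, limma adjusted p = 0.0239). This call was kept in 1 of the 4 fits that dropped a compared array. The value was 0.42 (limma adjusted p = 0.186) without CD24+CD172a+ replicate 2, 0.58 (limma adjusted p = 0.103) without CD24+ cDC1 replicate 1 and 0.56 (limma adjusted p = 0.112) without CD24+ cDC1 replicate 2. For CD24-CD172a+ cDC2 over CD24+ cDC1 the log2 fold change was 0.31 (95% interval -0.01 to 0.63, limma adjusted p = 0.203), and the neighbouring steps of the order were not separated by the test.

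Runx1, the RUNX factor of definitive hematopoiesis, ran in the opposite order. It had 8.58 and 8.33 log2 units in CD24+CD172a+ cDC2, 8.81 and 8.40 in the CD24-CD172a+ cDC2, and 8.91 and 8.78 in CD24+ cDC1. The CD24+ cDC1 arrays lay above those of CD24+CD172a+ cDC2 but overlapped with CD24-CD172a+ cDC2. The log2 fold change of CD24+CD172a+ cDC2 over CD24+ cDC1 was -0.40 (95% interval -0.76 to -0.03, limma adjusted p = 0.167), which did not pass over all genes. Cbfb, the shared partner subunit, had means of 8.03, 8.08 and 8.19 in the order of the populations above and was not called, and no single-symbol probe set was used for Runx2. The difference between the RUNX genes was not tested, since each was read on a probe set of its own.

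Lymphoid markers were set beside Runx3, which NK and T cells also use. Of 7 NK markers, 1 was higher in CD24+CD172a+ cDC2 than in CD24+ cDC1 and 0 lower, 14.3% where 13.6% of all genes were called. That gene was Tbx21, the transcription factor T-bet, at 1.09. The summed linear intensity of the NK markers was 174 to 197 in CD24+CD172a+ cDC2, 181 to 188 in CD24-CD172a+ cDC2 and 142 to 147 in CD24+ cDC1, and Ncr1, which defines NK cells, was at 3.52, 3.75 and 3.90 log2 units in the same order. Of 8 T cell markers, 0 were called by limma in that comparison, and 0 had an unadjusted p under 0.05. Their summed linear intensity was 315 to 326, 298 to 360 and 333 to 336, again in that order. Their part in the Runx3 result was not tested. The nearest profiles to Runx3 were those of Abca2 (0.0577), Ada (0.0589) and Sesn3 (0.0598).

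Cbfa2t3 had its lowest level in CD24-CD172a+ cDC2. On its brighter probe set the log2 intensity was 6.60 and 6.62 in CD24+CD172a+ cDC2, 6.32 and 6.26 in the CD24-CD172a+ cDC2, and 6.69 and 6.87 in CD24+ cDC1. No arrays overlapped between the 3 populations, but CD24+CD172a+ cDC2 and CD24+ cDC1 differed by only -0.17 (95% interval -0.46 to 0.12). CD24-CD172a+ cDC2 were 1.41-fold lower than CD24+ cDC1 (log2 fold change -0.49, SE 0.13, 95% interval -0.78 to -0.20, limma adjusted p = 0.0264). The second probe set of the gene did not show this. It had 5.51 and 5.49, 5.78 and 5.54, and 5.37 and 5.65 log2 units in the order of the populations above, with a log2 fold change of 0.15 (limma adjusted p = 0.597) for CD24-CD172a+ cDC2 over CD24+ cDC1. With the mean of both probe sets the value was -0.27 (limma adjusted p = 0.234), and without each of the 4 compared arrays in turn it was -0.58 to -0.40 (limma adjusted p 0.0528 to 0.176).

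Some genes listed together with Cbfa2t3 had larger differences. The list of E protein, ID inhibitor and ETO, LDB1 or LMO2 complex genes holds 15, Cbfa2t3 included. Of these, 3 were higher and 1 lower in CD24+CD172a+ cDC2 than in CD24+ cDC1. In CD24-CD172a+ cDC2, 2 were higher and 3 lower, Cbfa2t3 itself among the lower ones. Of genes above the median gene, which 11 of the 15 are, 23.9% and 27.6% were called. The list had 26.7% and 33.3%, so its counts are near that background. Counted over these calls, 2 of 4 and 2 of 5 were kept with any compared array left out. Tcf4, the E protein of plasmacytoid dendritic cells, had means of 7.77 in CD24+CD172a+ cDC2, 6.86 in CD24-CD172a+ cDC2 and 6.01 in CD24+ cDC1. Its log2 fold changes over CD24+ cDC1 were 1.76 (limma adjusted p = 5.23e-06) and 0.85 (limma adjusted p = 0.00103), and both were kept in all 4 fits that dropped a compared array. Id2, which blocks E proteins and is needed for cDC1, ran the opposite way, at 10.17, 10.83 and 11.47, and CD24+CD172a+ cDC2 were lower than CD24+ cDC1 by a log2 fold change of -1.31 (limma adjusted p = 7.53e-05). Tcf4 was higher (0.91) and Id2 lower (-0.66) also in CD24+CD172a+ over CD24-CD172a+ cDC2, but Id2 passed in 0 and Tcf4 in 1 of 4 fits that dropped a compared array, with limma adjusted p-values of 0.0808 to 0.254 for Id2 and 0.0416 to 0.115 for Tcf4. Tal1, Lmo2, Lyl1 and Ldb1, the core of the complex that Cbfa2t3 joins, were not called in any of the 3 comparisons, and their log2 fold changes for CD24+CD172a+ cDC2 over CD24+ cDC1 were -0.03, 0.22, -0.02 and 0.37. The nearest profiles to Cbfa2t3 were those of Mecr (0.0352), Mcph1 (0.0395) and Pdap1 (0.0452).

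**Figure D2:**
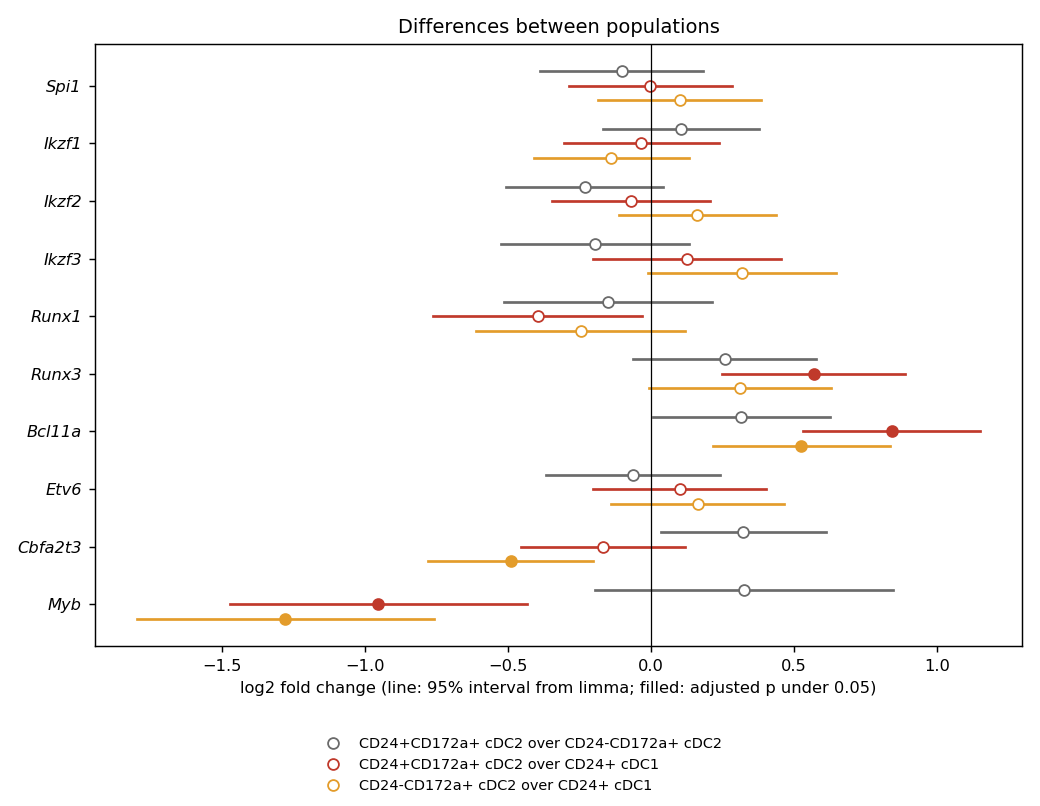
Log2 fold changes of the 10 factors (x axis) in the 3 comparisons, with 95% intervals from limma as lines and filled points where the adjusted p is under 0.05. Myb lies farthest left (-1.28 and -0.95 against CD24+ cDC1) and Bcl11a farthest right (0.84 and 0.53), while no grey point, CD24+CD172a+ over CD24-CD172a+ cDC2, is filled.

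Spi1 was nearly level. Its log2 intensity was 10.30 and 10.46 in CD24+CD172a+ cDC2, 10.44 and 10.52 in the CD24-CD172a+ cDC2, and 10.39 and 10.38 in CD24+ cDC1. CD24+CD172a+ cDC2 overlapped with both other populations. The 95% intervals of the log2 fold changes were -0.29 to 0.28 for CD24+CD172a+ cDC2 over CD24+ cDC1, -0.19 to 0.39 for CD24-CD172a+ cDC2 over CD24+ cDC1 and -0.39 to 0.18 for CD24+CD172a+ over CD24-CD172a+ cDC2, so changes of 1 log2 unit lie outside all 3.

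Some of the genes known as PU.1 targets differed widely beside this level Spi1. Of 13 measured, 6 were higher and 3 lower in CD24+CD172a+ cDC2 than in CD24+ cDC1, and 6 were higher and 1 lower in CD24-CD172a+ cDC2. Between the cDC2 populations 0 were called by limma (4 at an unadjusted p under 0.05). Against CD24+ cDC1 the shares were 69.2% and 53.8%, in a list chosen with earlier results of these data known. Of genes above the median gene, which 11 of the 13 are, 23.9% and 27.6% were called. Of the calls against CD24+ cDC1, 5 of 9 and 6 of 7 were kept with any compared array left out, those of the 3 genes named next among them. Cybb, the NADPH oxidase subunit, had a log2 fold change of 5.43 (limma adjusted p = 1.03e-08) in CD24+CD172a+ cDC2 and 5.23 (limma adjusted p = 1.04e-08) in CD24-CD172a+ cDC2. Csf1r, the receptor of macrophage colony-stimulating factor, had 3.77 (limma adjusted p = 3.77e-08) and 3.59 (limma adjusted p = 5.52e-08), and Itgam, the CD11b integrin, had 3.18 and 3.49. The lower genes changed less: Csf2ra (-0.51), Tlr4 (-0.53) and Btk (-0.58) in CD24+CD172a+ cDC2, and Flt3 (-0.64) in CD24-CD172a+ cDC2. Each of these lower calls was lost on dropping some compared array. Cybb and Itgam also stand in the list of cDC2 markers above, Csf1r in that of monocyte and macrophage markers, and Csf3r, the receptor of granulocyte colony-stimulating factor, in that of neutrophil markers. Of 11 monocyte and macrophage markers, 2 were higher and 3 lower in CD24+CD172a+ cDC2 than in CD24+ cDC1, and 5 were higher and 1 lower in the CD24-CD172a+ cDC2. Of 10 neutrophil markers, 3 and 2 were higher and 0 lower in the same comparisons, and their summed linear intensity was 291 to 334 in CD24+CD172a+ cDC2, 199 to 213 in the CD24-CD172a+ cDC2 and 179 to 197 in CD24+ cDC1. The part of these markers in the values of the PU.1 targets was not tested. The list's median log2 fold change was 0.17 and 0.36 over CD24+ cDC1, against -0.03 and 0.00 over all genes.

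The other PU.1-class ETS genes were less even than Spi1. Spib, which plasmacytoid dendritic cells and B cells use, had means of 6.78 in CD24+CD172a+ cDC2, 5.95 in CD24-CD172a+ cDC2 and 4.66 in CD24+ cDC1. The log2 fold changes over CD24+ cDC1 were 2.12 (limma adjusted p = 4.85e-06) and 1.29 (limma adjusted p = 0.000199), and both calls were kept with any 1 compared array left out. Spic, the factor of iron-recycling macrophages, was lower in CD24+CD172a+ cDC2 than in CD24+ cDC1 (-1.11, limma adjusted p = 0.00353). Monocyte and macrophage markers, 11 measured, summed to a linear intensity of 2382 to 2646 in CD24+CD172a+ cDC2, 4419 to 4600 in CD24-CD172a+ cDC2 and 3990 to 4251 in CD24+ cDC1, with 2 genes higher and 3 lower in CD24+CD172a+ cDC2 than in CD24+ cDC1, and their part in the Spic value was not tested. Of 17 ETS genes in all, Spi1 and Etv6 included, 6 were higher and 1 lower in CD24+CD172a+ cDC2 than in CD24+ cDC1. In CD24-CD172a+ cDC2, 5 were higher and 0 lower. Of genes above the median gene, which 15 of the 17 are, 23.9% and 27.6% were called, against 41.2% and 29.4% in this list. These calls were kept with any compared array left out for 4 of 7 and 3 of 5 genes. Elk3 was the ETS gene with the largest difference, at 2.40 (limma adjusted p = 1.19e-06) and 1.96 (limma adjusted p = 5.1e-06). Between the cDC2 populations Spib was higher by 0.83 (limma adjusted p = 0.0315) and Spic lower at -1.56 (limma adjusted p = 0.00678) in CD24+CD172a+ cDC2. In that comparison 6 of the 11 monocyte and macrophage markers, a list that holds Spic itself, were lower and 0 higher, with a median of -0.82, 0 of the 6 calls were kept with any compared array left out, and their part in this value was not tested either. The Spib call was lost without each of the 4 compared arrays in turn (0.71 to 0.96, limma adjusted p up to 0.200), and the Spic call without CD24+CD172a+ replicate 1 or CD24-CD172a+ replicate 2 (limma adjusted p up to 0.0928).

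Etv6, an ETS repressor required by adult stem cells, did not pass in any comparison. Its log2 intensity was 9.69 and 9.70 in CD24+CD172a+ cDC2, 9.78 and 9.74 in the CD24-CD172a+ cDC2, and 9.46 and 9.73 in CD24+ cDC1. CD24+ cDC1 replicate 1 was the low array, and replicate 2 lay between the arrays of the 2 cDC2 populations. The intervals of the log2 fold change were -0.20 to 0.40 for CD24+CD172a+ cDC2 over CD24+ cDC1 and -0.14 to 0.47 for CD24-CD172a+ cDC2 over CD24+ cDC1.

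The Ikaros family genes did not pass in any comparison either. Ikzf1, which encodes Ikaros, had 8.48 and 8.52 log2 units in CD24+CD172a+ cDC2, 8.41 and 8.38 in the CD24-CD172a+ cDC2, and 8.52 and 8.54 in CD24+ cDC1. Its populations did not overlap, yet the largest of its 3 log2 fold changes was -0.14 (CD24-CD172a+ cDC2 over CD24+ cDC1, 95% interval -0.41 to 0.13). Absence of overlap is common with 2 arrays a group: it held for 6 of 10 factors between the cDC2 populations, where it held for 44.2% of all genes, for 7 of 10 in CD24+CD172a+ cDC2 against CD24+ cDC1, where 52% of genes did, and for 9 of 10 in CD24-CD172a+ cDC2 against CD24+ cDC1, where 52.4% did.

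Ikzf2, which encodes Helios, and Ikzf3, which encodes Aiolos, were dim, below the mean log2 intensity of 5.04 of the median gene. Ikzf2 had 4.22 and 4.13 log2 units in CD24+CD172a+ cDC2, 4.40 and 4.41 in the CD24-CD172a+ cDC2, and 4.23 and 4.26 in CD24+ cDC1. Both CD24-CD172a+ arrays were above the other 4, with a log2 fold change of -0.23 (95% interval -0.51 to 0.04, limma adjusted p = 0.440) for CD24+CD172a+ over CD24-CD172a+ cDC2. Ikzf3 had 4.25 and 3.88, 4.29 and 4.22, and 3.91 and 3.97 in the same order of populations. CD24+CD172a+ replicate 1 lay with the CD24-CD172a+ arrays and replicate 2 with the CD24+ cDC1 arrays, and CD24-CD172a+ cDC2 over CD24+ cDC1 gave 0.32 (95% interval -0.01 to 0.65, limma adjusted p = 0.204). Whether these 2 genes were above background was not examined, since no detection calls were used.

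Ikzf4 and Ikzf5 complete the family, and of the 5 genes 0 were called by limma in any comparison, with 0, 1 and 0 at an unadjusted p under 0.05 in the 3 comparisons (the 1 in CD24+CD172a+ cDC2 over CD24+ cDC1). The largest value was that of Ikzf5, at 0.53 (limma adjusted p = 0.0789) in CD24+CD172a+ cDC2 over CD24+ cDC1. The NuRD complex, which Ikaros proteins recruit, had 2 higher and 0 lower of 13 genes in CD24+CD172a+ cDC2 over CD24+ cDC1, and 1 higher and 2 lower in CD24-CD172a+ cDC2 over CD24+ cDC1, of which 1 of 2 and 0 of 3 calls were kept with any compared array left out. All 13 lie above the median gene, and the 15.4% and 23.1% called were below the 23.9% and 27.6% of such genes. Chd3, a remodelling ATPase of the complex, was higher in CD24+CD172a+ cDC2 (0.76, limma adjusted p = 0.00177). Its relative Chd4 was lower in CD24-CD172a+ cDC2 (-0.59, limma adjusted p = 0.00967), as was the deacetylase gene Hdac2 (-0.71, limma adjusted p = 0.00591). Without CD24+ cDC1 replicate 2 the Chd4 call was lost at an adjusted p of 0.0832, and without CD24+ cDC1 replicate 1 the Hdac2 call was lost at 0.0541, both from limma.

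Between the cDC2 populations, 0 NuRD and 0 BAF genes were called by limma (4 and 10 at an unadjusted p under 0.05), but their medians lay above that of all genes. Of 13 NuRD genes, 11 had a positive log2 fold change of CD24+CD172a+ over CD24-CD172a+ cDC2, with a median of 0.28, and of 21 BAF genes 17 were positive, with a median of 0.31, against -0.01 over all genes and 0.05 over genes above the median gene. The medians were 0.21 to 0.29 for NuRD and 0.21 to 0.32 for BAF when the arrays were scaled again in 3 ways, and at most 1 BAF gene was then called. Bcl11a, at 0.32, lay near the median of the BAF genes.

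**Figure D3:**
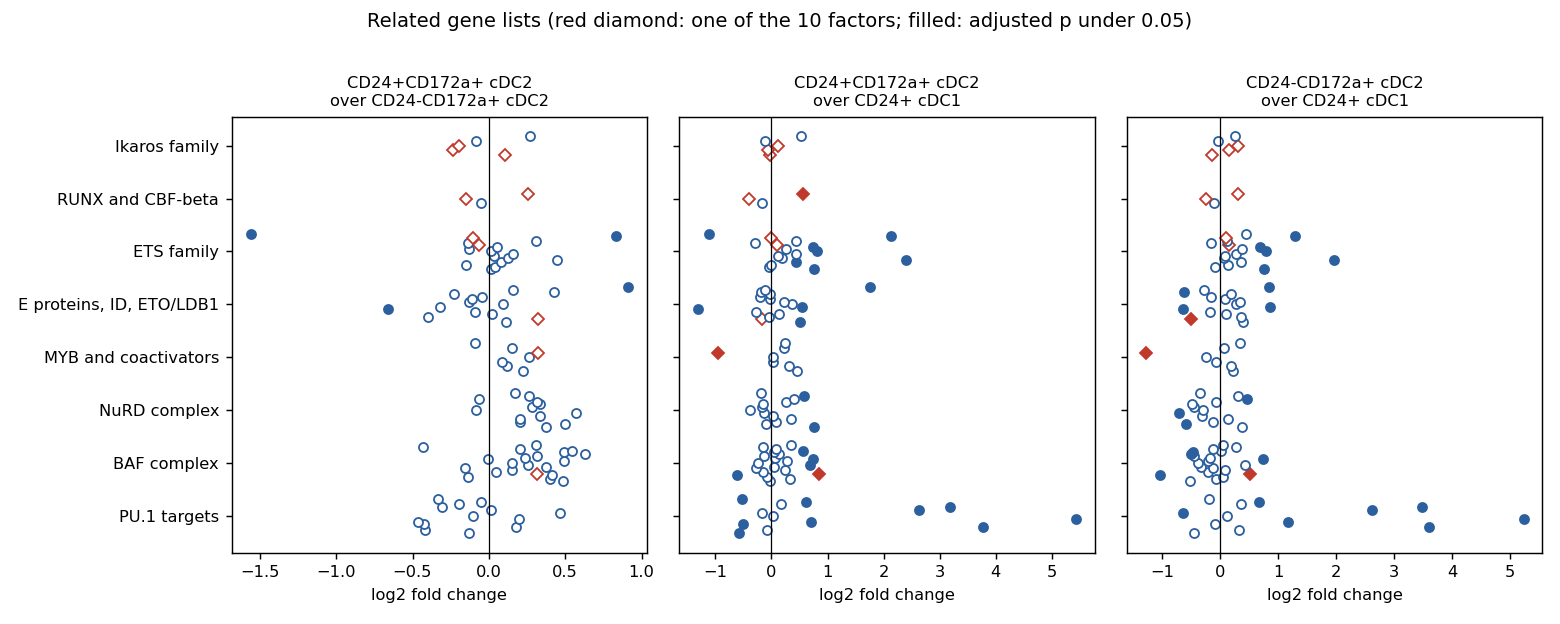
Log2 fold changes (x axis) of the genes of 8 related lists (y axis) in the 3 comparisons, with red diamonds for the 10 factors, blue circles for other genes and filled symbols where the limma adjusted p is under 0.05. The PU.1 target list reaches 5.43 in CD24+CD172a+ cDC2 over CD24+ cDC1, while Spi1 stays between -0.10 and 0.10 in all 3 panels.

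The 6 called differences were not equally firm. Bcl11a in CD24+CD172a+ cDC2 and Myb in CD24-CD172a+ cDC2, both against CD24+ cDC1, passed in all 4 fits that dropped a compared array, with values of 0.70 to 0.98 and -1.64 to -0.92. The other 4 did so in at most 2 of the 4 fits.

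**Figure D4:**
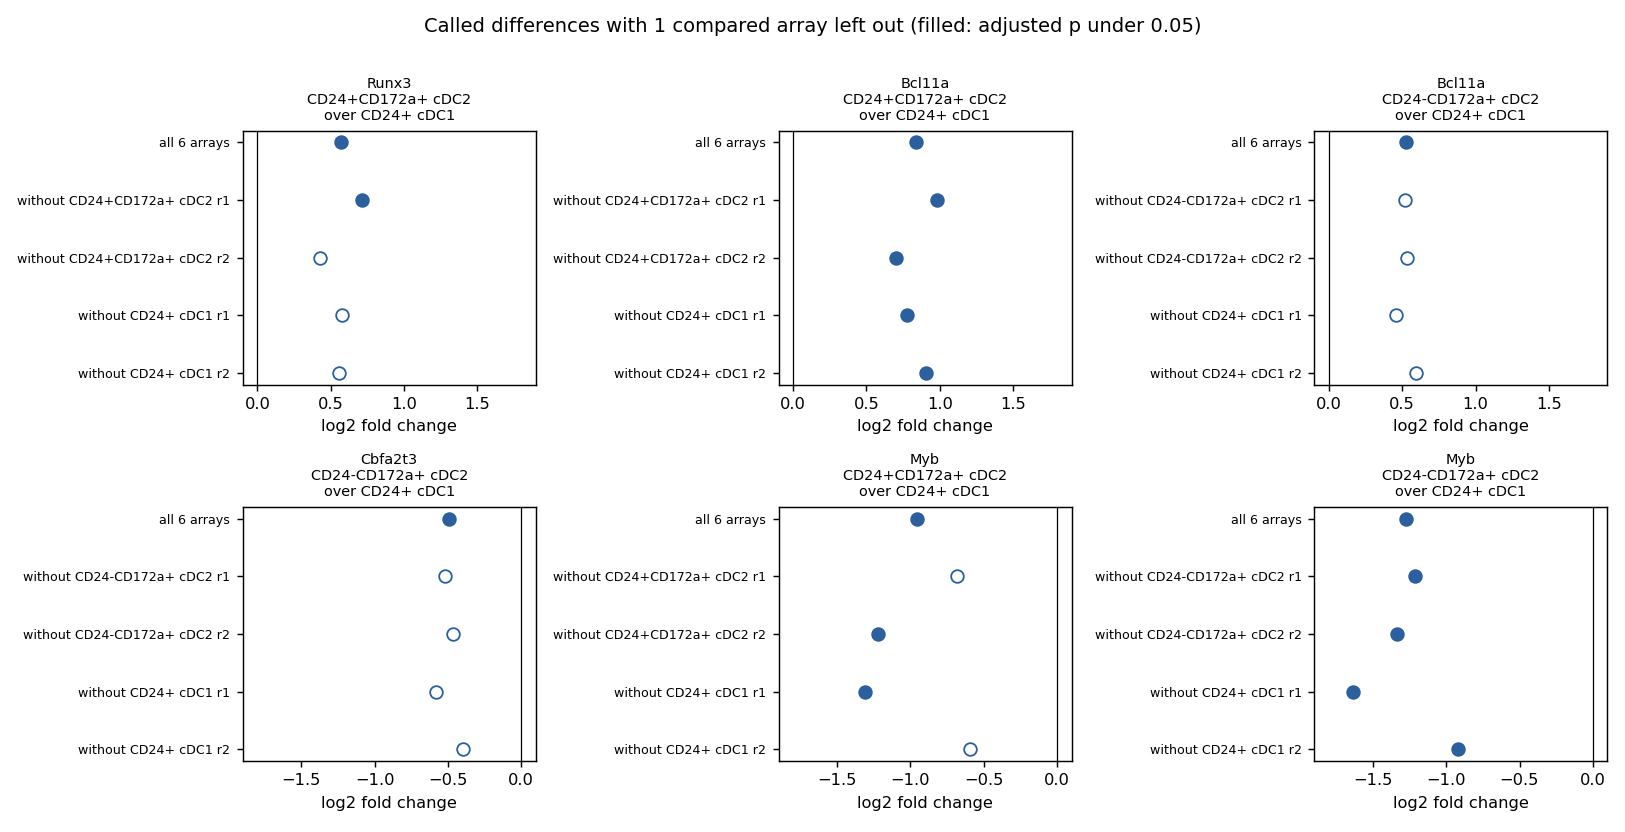
Log2 fold changes (x axis) of the 6 called differences, with all 6 arrays (top row of each panel) and with each of the 4 compared arrays left out in turn. Filled points have a limma adjusted p under 0.05. All points stay on their side of 0, and the Bcl11a panel for CD24+CD172a+ cDC2 and the Myb panel for CD24-CD172a+ cDC2 are the 2 with every point filled.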

How the data were processed

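Total RNA of sorted splenic dendritic cells was measured on 6 Affymetrix arrays. Per the submitters' processing notes, the deposited values were made with RMA in Affymetrix Expression Console; versions and a genome build are not given in the sources used here. The deposited intensities have array maxima of 11459 to 12095, so the scale is linear, and log2 intensity was taken here before every test. Signal over background was not examined, and array number limits the precision. Of 28853 probe sets, 21789 with 1 symbol were used; 1621 had several symbols and 5443 none. For the 999 genes with several probe sets, the one with the highest mean was kept, leaving 19938 genes, all 10 factors among them. Groups and replicate numbers came from the titles. A linear model over all 6 arrays, with eBayes moderation and no trend (limma 3.58.1, R 4.3.3), was fitted to all genes, with Benjamini-Hochberg adjustment and calls at an adjusted p under 0.05. Factors and gene lists were chosen with earlier results of these data known. Named from each list were called genes by absolute log2 fold change, otherwise those with the smallest p, but not every called gene was named. Kit, Siglech and the lower PU.1 targets were named although other called genes of their lists changed more. Tal1, Lmo2, Lyl1, Ldb1, Cbfb, Ikzf5, the B and NK cell defining markers and Bcl11b were named for their role or after their values were seen. The nearest profiles came from genes above the median gene. The fit was tested on simulated data. Alternatives varied the probe set rule, dim-gene filter, offset, scaling, variance model, groups fitted, replicate block and arrays left out.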

Additional observations from a re-analysis of the deposited data

How the results depend on the processing

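The log2 fold changes of the 10 factors were recomputed under 18 alternatives, 6 of which left out an array. Of 534 values, 517 stayed on their side of the threshold, 17 kept their direction and were no longer called, and 0 reversed as calls. Only the 6 called differences could lose a call, so the 517 hold many values that had no call to lose. Some alternatives, such as another variance model, also leave the log2 fold change itself as it is. Among the 517, 8 values called in neither fit changed sign, the largest of them 0.15 in absolute log2 fold change. Between the cDC2 populations 0 factors were called by limma under any alternative. Against CD24+ cDC1, with 3 factors called in each cDC2 population, leaving out 1 array gave 1 to 3 for CD24+CD172a+ cDC2, the 1 without CD24+ cDC1 replicate 2, and 1 to 3 for CD24-CD172a+ cDC2, the 1 on dropping any of the 4 arrays compared. With log2(intensity + 16), 2 factors were called for CD24+CD172a+ cDC2, where Myb was at -0.78 (adjusted p = 0.0617, limma). For CD24-CD172a+ cDC2, 2 were called with probe sets of a gene averaged, with quantile normalisation applied again or with cyclic loess, where Cbfa2t3 was at -0.27, -0.42 and -0.40; the cause was not tested, except that the average takes in the second probe set. The filter at the median gene removes Ikzf2 and Ikzf3. The replicate numbers came from the titles, which do not say whether same-numbered arrays belong together, and the main fit did not pair them. Over the 3 comparisons, deviations of same-numbered arrays correlated at 0.0838, 0.0837 and 0.0242. The order is CD24+CD172a+ over CD24-CD172a+ cDC2, CD24+CD172a+ cDC2 over CD24+ cDC1, CD24-CD172a+ cDC2 over CD24+ cDC1. Such low correlations cannot settle whether the arrays were paired. With the replicate number as a block, 0, 3 and 3 factors were called, and 411, 2918 and 3323 genes, against 291, 2718 and 3137 without it. The 291 genes called between the cDC2 populations became 437 without genes below the median gene, 464 with an intensity trend and robust variance, 187 with only the 2 groups compared or on dropping either CD24+ cDC1 array, and 20 to 98 without 1 of the 4 compared arrays. The 2718 genes became 1805 on dropping CD24+ cDC1 replicate 1, and 1781 or 1810 on dropping the CD24+CD172a+ replicate 1 or 2, and the 3137 became 1922 without CD24+ cDC1 replicate 1. These fits have fewer arrays, and a lone array is assumed to vary like those of the other groups.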
